A study of Mus musculus with 2 samples.

Results

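The subject was a set of 9 genes encoding C-type lectin receptors of myeloid cells, *Mgl2*, *Clec10a*, *Clec7a*, *Clec4a2*, *Clec4n*, *Cd209a*, *Clec12a*, *Ly75* and *Mrc1*, out of 18049 genes listed in the expression data. The genes were set by name, with no threshold on a measured value, and all 9 were listed in both libraries. They were measured by CITEseq, in which the mRNA of single cells is read together with DNA-barcoded antibodies bound to the same cells. One question of the design was whether CD301b, the protein encoded by *Mgl2*, marked the same cells in its mRNA and in its antibody value. The other was how these receptors differed between steady state and the first day after a type 2 immunization.

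Live MHCII-high CD11c+ B220- cells, a gate for migratory DCs, were sorted from lymph nodes of B6 mice. The naive library came from unimmunized mice. The papain library came from mice given OVA, the antigen, plus papain, a protease allergen, in the rear footpads 1 day earlier. According to the methods, the immunized mice gave popliteal nodes and the naive mice pooled skin-draining nodes, whereas GEO's labels give both libraries the tissue skin-draining lymph node and, in their protocol, the popliteal node. Lymph node site and immunization therefore cannot be told apart in any difference between the libraries. No other allele or agent was named for either library. The authors' classes by antibody were used, with 658 CD301b-low, 659 CD301b-int and 707 CD301b-high cDC2s, 578 cDC1s and 440 Langerhans cells (LCs) in the naive library. The papain library held 1470, 1827 and 2893 cDC2s in the same order, 235 cDC1s and 881 LCs.

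C-type lectin receptors recognise carbohydrates or other ligands through a shared fold and are used by DCs for uptake of antigen and for sensing of microbes. *Mgl2* and *Clec10a* encode the mouse macrophage galactose-type lectins CD301b and CD301a, which bind terminal galactose and N-acetylgalactosamine. *Clec7a* (Dectin-1) and *Clec4n* (Dectin-2) encode activating receptors for fungal glucans and mannans that signal through Syk and Card9. *Clec4a2* (DCIR1) and *Clec12a* (DCAL-2) carry inhibitory motifs. *Cd209a* (a mouse homologue of DC-SIGN), *Ly75* (DEC-205) and *Mrc1* (the mannose receptor, CD206) are uptake receptors, and DEC-205 is well known on cDC1s and LCs.

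The antibody side of the comparison rests on the oligonucleotide barcode that each antibody carried, so the barcode read as CD301b is printed here in full and in capitals as the feature list gives it, with a second one shared by 2 antibodies of the panel. The CD11b and CD24 antibodies were listed with the same barcode, and their values were therefore not read as separate markers.
CD301b antibody: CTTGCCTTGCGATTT
CD11b and CD24 antibodies: TATATCTTTGCCGCA

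On the genome (GRCm38.p6, RefSeq), *Mgl2* lies at chr11:70130125-70137542 and *Clec10a* at chr11:70166623-70170836, with 29.1 kb between them. *Clec4a2* and *Clec4n* lie 85.8 kb apart on chromosome 6, and *Clec12a* and *Clec7a* lie 96.3 kb apart on the same chromosome. *Cd209a* is on chromosome 8, and *Ly75* and *Mrc1* are on chromosome 2. Neighbouring genes of this family are close relatives in sequence, so 3′ reads that match more than 1 of them could be lost or split, and levels of *Mgl2* and *Clec10a*, of *Clec4a2* and its *Clec4a* relatives, and of *Cd209a* and the other *Cd209* genes carry this uncertainty.

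A RefSeq promoter window, 250 bases before to 50 after the start, was found for 7 of the 9 genes. *Clec10a* and *Clec4n* had none in the table. The windows of *Mgl2* and *Clec7a*, the genes on which most of the results turn, are printed 5′ to 3′ on the strand of the gene, chr11:70130107-70130406 on the plus strand and chr6:129472730-129473029 on the minus strand (the first of 2 listed starts of *Clec7a*). Capitals mark matches on either strand to GAGGAA, a core of sites for PU.1, and to a STAT6-type motif, TTC followed after 4 free bases by GAA. The third motif searched was the AP-1 type TGANTCA. No matches overlapped in the windows printed.
Mgl2: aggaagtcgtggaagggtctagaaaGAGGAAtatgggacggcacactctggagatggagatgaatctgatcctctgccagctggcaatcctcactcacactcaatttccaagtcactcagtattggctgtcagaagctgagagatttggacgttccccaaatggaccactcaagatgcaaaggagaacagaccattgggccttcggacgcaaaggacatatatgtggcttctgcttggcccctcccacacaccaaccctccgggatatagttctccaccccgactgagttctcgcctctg
Clec7a: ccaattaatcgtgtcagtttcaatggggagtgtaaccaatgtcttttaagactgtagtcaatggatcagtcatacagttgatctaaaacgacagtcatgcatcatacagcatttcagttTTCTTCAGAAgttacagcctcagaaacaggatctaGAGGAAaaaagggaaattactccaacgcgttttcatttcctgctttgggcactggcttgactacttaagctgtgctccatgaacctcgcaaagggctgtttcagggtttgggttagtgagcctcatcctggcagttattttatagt

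GAGGAA was present in 28.3% of 32851 promoter windows, the STAT6-type motif in 6.95% and TGANTCA in 7.81%. GAGGAA matched once in *Mgl2*, once in *Clec7a*, 2 times in *Clec12a* and 3 times in *Mrc1*. Only *Clec7a* among the 7 had the STAT6-type motif, and *Clec4a2* and *Clec12a* each had 1 TGANTCA. These matches describe letters in a window and were not tied to the expression values.

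Expression was recovered as counts of unique molecular identifiers (UMIs) and summed over the cells of a class, and a level is given in CPM, the UMIs of a gene per 1000000 UMIs of those cells. Each condition had 1 library, so no value had a replicate, no test between conditions was possible, and all 95% intervals (exact Poisson for CPM, Clopper-Pearson for shares of cells, exact binomial for log2 ratios) cover counting error only. Median depth was 13764 UMIs per naive cell and 14738 per papain cell, and 2 cell barcodes were shared by the libraries. A gene was called lower or higher where its ratio reached 2-fold and its level reached 10 CPM in the higher group. The labels held in single marker genes, since *Cd207* was at 45.7 and 58.9 CPM in naive and papain LCs and at no more than 0.35 CPM in any cDC2 class, and *Xcr1* was highest in cDC1s of each library, at 16.9 and 9.44 CPM. Longer marker lists were highest in their own class but less apart. A list of 5 LC markers summed to 810 and 565 CPM in naive and papain LCs, and to 445 and 152 CPM in cDC1s. A list of 8 cDC1 markers summed to 877 and 1249 CPM in cDC1s, and to 640 and 739 CPM in LCs.

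*Mgl2* mRNA was found mainly in naive cDC2s and was near its detection limit after papain. In the naive library its level was 15.2 CPM (12.8 to 17.9) in CD301b-low, 59.1 CPM (54.5 to 64.0) in CD301b-int and 56.1 CPM (51.9 to 60.7) in CD301b-high cDC2s. Naive cDC1s had 7.90 CPM (6.21 to 9.90) and LCs 6.21 CPM (4.27 to 8.72). The CD301b-int and CD301b-high intervals overlapped, and both lay above the CD301b-low interval, which in turn lay above those of cDC1s and LCs.

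In the papain library *Mgl2* was at 0.831 CPM (0.465 to 1.37) in CD301b-low, 0.476 CPM (0.260 to 0.799) in CD301b-int and 1.21 CPM (0.923 to 1.55) in CD301b-high cDC2s. LCs held 2 *Mgl2* UMIs, and 235 cDC1s held 0, which allows up to 0.976 CPM. The papain CD301b-high interval lay above the CD301b-int one and overlapped the CD301b-low one. Every papain interval lay below every naive one.

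The share of cells with an *Mgl2* UMI was small even where the level was highest. It was 4.56% of naive CD301b-low, 9.10% of CD301b-int and 5.37% of CD301b-high cDC2s, against 2.25% of cDC1s and 1.59% of LCs, which are not known to make the protein. After thinning each cell to 8392 UMIs, the shares were 3.52%, 7.82%, 4.73%, 1.43% and 1.28% in the same order, so the order of the classes was kept. In the papain library the shares were 0.476%, 0.657% and 0.968% of the 3 cDC2 classes (median depths of 11351, 15083 and 16181 UMIs), against 0.227% of LCs at a median depth of 18290 UMIs. The interval of the papain LCs, up to 0.818%, overlapped those of all 3 cDC2 classes.

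**Figure D1:**
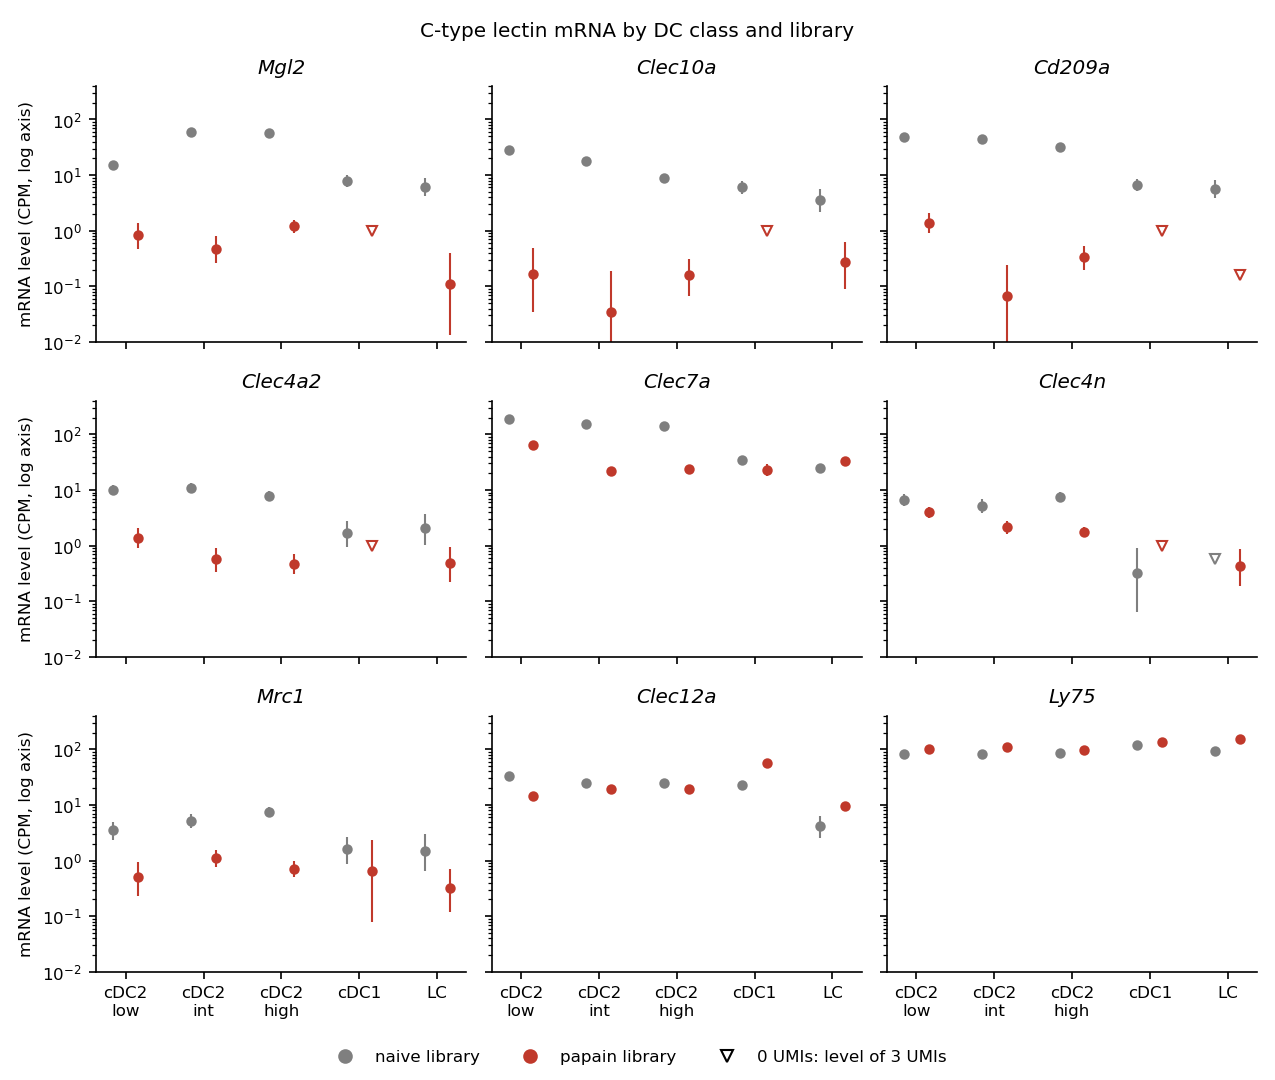
mRNA level in CPM (log axis) of each of the 9 genes in the 5 DC classes, with the naive library in grey and the papain library in red; points are single libraries, bars are 95% Poisson intervals of the summed UMIs, and open triangles mark 0 UMIs at the level of 3 UMIs. *Mgl2*, *Clec10a*, *Cd209a* and *Clec4a2* were lower in every cDC2 class of the papain library, whereas *Ly75* was at 82.8 to 150 CPM in all 10 groups.

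Set beside the antibody, *Mgl2* mRNA was lower in CD301b-low than in CD301b-int and CD301b-high naive cDC2s. Over all single cDC2s of a library, the correlation of *Mgl2* with the antibody was close to 0, with most cells at 0 *Mgl2* UMIs. The median CD301b antibody value, a natural logarithm, was 0.291, 1.19 and 2.13 in naive CD301b-low, -int and -high cDC2s, and 0.321, 1.22 and 2.27 in the papain classes. The classes were cut on this antibody, which makes its own values a description. CD301b-low cells went up to 0.732 and 0.734, and CD301b-high cells started at 1.65 in both libraries. The class medians therefore had to be close and cannot be set against the difference in mRNA. As a share of antibody counts, the median of CD301b was 0.914% in all naive and 2.12% in all papain cDC2s. For *Mgl2* the log2 ratio of CD301b-high over CD301b-low was 1.89 (1.62 to 2.16) in naive and 0.54 (-0.29 to 1.46) in papain cDC2s. *Mgl2* was the only member called higher in naive CD301b-high cells, where 0.829% of all genes tested were called higher.

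Over single cDC2s, Spearman's correlation of the *Mgl2* level per cell with the CD301b value was 0.023 in the naive library (n = 2024 cells) and 0.019 in the papain library (n = 6190 cells). The cells of a library share its depth and antibody panel, and these values are descriptions. Only 128 of 2024 naive and 47 of 6190 papain cDC2s held an *Mgl2* UMI. The other cells were tied at 0, which limits how far such a correlation can lie from 0, most of all in the papain library. The CD11c antibody (0.260) and the MHCII antibody (-0.284) were further from 0 with *Mgl2* than CD301b was in naive cDC2s. Naive cDC2s with at least 1 *Mgl2* UMI (128 cells) had a median CD301b value of 1.36 and a median CD11c value of 3.60, against 1.21 and 2.08 in the 1896 cells without one. The *Mgl2*-positive naive cells thus stood apart more by CD11c than by CD301b.

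Ranked by the CD301b value into 10 bins of equal cell number, naive cDC2s had 4.30, 4.37 and 19.6 CPM of *Mgl2* in bins 1 to 3. From bin 4 to bin 10 the level lay between 43.1 and 81.4 CPM without a steady order, while the median antibody value went from 0.813 to 2.84. Bin 10, at 47.9 CPM (40.6 to 56.0), was below bin 6, at 81.4 CPM (71.9 to 91.8). In the papain library no bin passed 2.45 CPM.

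**Figure D2:**
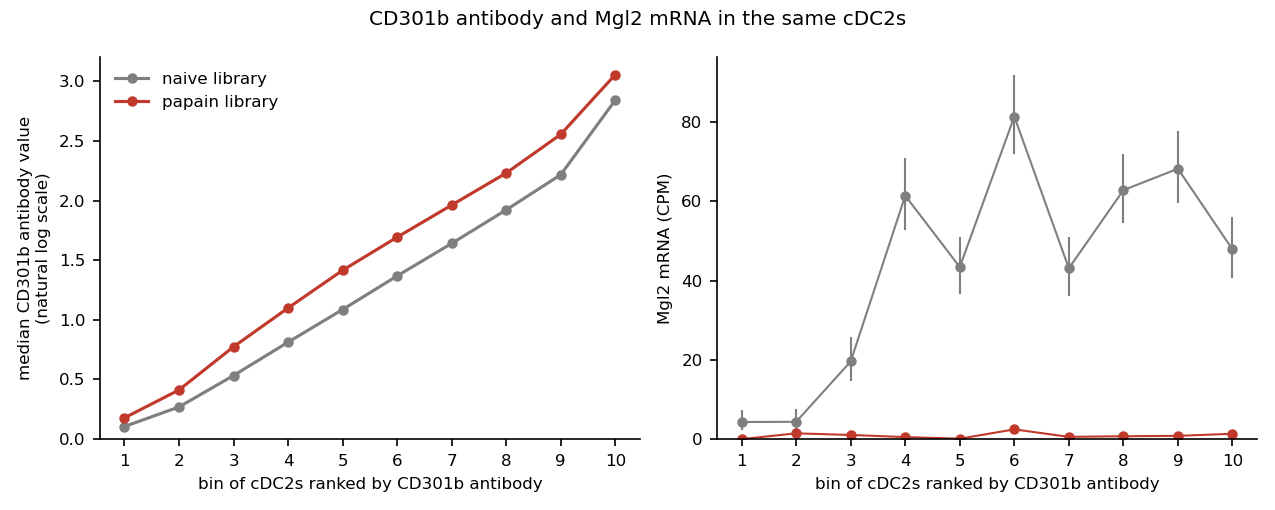
cDC2s of each library ranked into 10 bins by the CD301b antibody, with the median antibody value (left, natural log scale) and the *Mgl2* level in CPM with 95% Poisson intervals (right); naive in grey, papain in red. The median antibody value of the papain library was slightly above that of the naive library in every bin, whereas *Mgl2* reached 81.4 CPM in naive cells and at most 2.45 CPM in papain cells.

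Most of the naive *Mgl2* mRNA lay in few cells. Of 1392 *Mgl2* UMIs in naive cDC2s, 19 cells held 50% and the 73 cells with at least 5 UMIs held 1309, so the Poisson intervals above understate the error. In the papain library 47 of 6190 cDC2s held 90 UMIs. The naive cDC2s fell into 7 of the authors' mRNA clusters, of which cluster 5, with 246 cells (12.2% of the cDC2s), held 96.8% of the *Mgl2* UMIs. Its *Mgl2* level was 276 CPM (261 to 291), against 0.53 to 33.3 CPM in the other 6 clusters. The clusters were made from mRNA and this one was picked here for its *Mgl2*, so its genes are described without a test.

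Cluster 5 was not the cluster with the most CD301b on the surface. Its median antibody value was 0.527, and naive clusters 1, 2 and 6 had 1.75, 1.60 and 1.61 with 1.88, 0.643 and 33.3 CPM of *Mgl2*. The other receptors were concentrated in it as well. It held 99.3% of the naive cDC2 UMIs of *Clec10a*, 98.7% of *Cd209a*, 92.6% of *Clec4a2*, 85.4% of *Mrc1*, 72.2% of *Clec7a*, 66.3% of *Clec4n* and 36.7% of *Clec12a*, and 5.04% of those of *Ly75*. *Ly75* was thus the member with a smaller share of UMIs than of cells there.

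The marker lists also differed between cluster 5 and the other naive cDC2s. The migratory DC list (*Ccr7*, *Fscn1*, *Cacnb3*, *Ccl22*, *Relb*) summed to 2407 CPM in cluster 5, 9378 CPM in the other naive cDC2s and 9099 CPM in papain cDC2s. The cDC2 list, which includes *Mgl2*, *Cd209a* and *Clec10a*, summed to 976, 131 and 146 CPM. The macrophage and monocyte list, with 16 of 19 genes listed, summed to 4653, 84.7 and 65.9 CPM. Its leading gene was *Lyz2*, encoding lysozyme, at 3763, 33.2 and 24.0 CPM. Of that list *Fcgr1* was at 0 in the naive cDC2s outside the cluster, and no gene of it was at 0 in cluster 5. The T cell list summed to 122, 76.8 and 27.3 CPM, the B cell list to 78.4, 34.5 and 10.8 CPM, and the plasmacytoid DC list to 371, 239 and 396 CPM. The part of these cells in the differences between the libraries is addressed with the ratios, and whether they were a separate kind of cell was not tested.

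**Figure D3:**
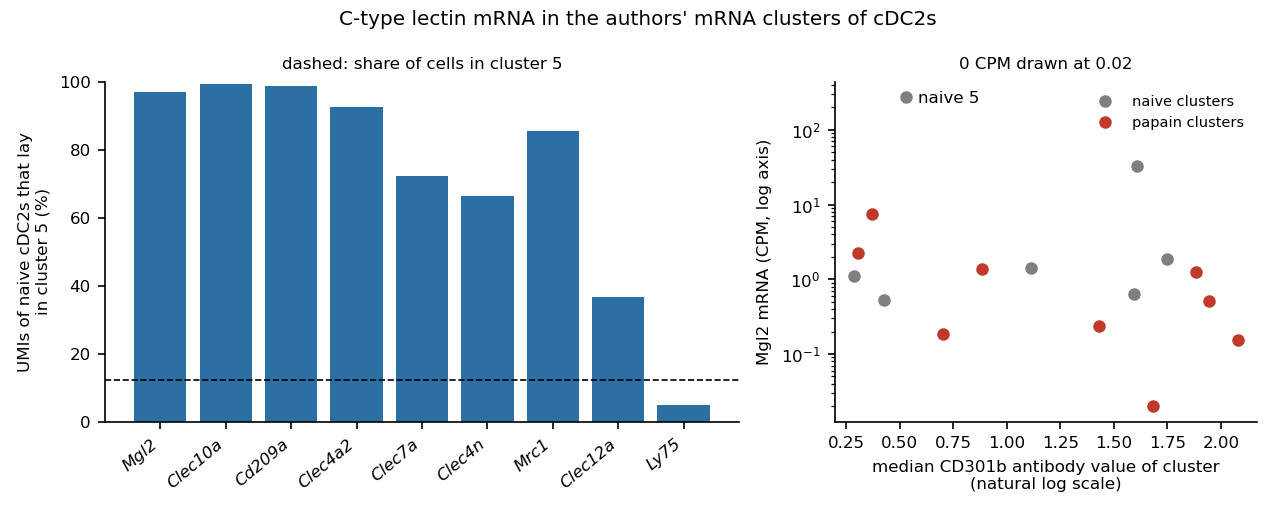
Left, the percentage of each gene's UMIs in naive cDC2s that lay in naive mRNA cluster 5, with a dashed line at its 12.2% of the cells; right, *Mgl2* in CPM (log axis) against the median CD301b antibody value of the cDC2s of each mRNA cluster, naive in grey and papain in red, with the 1 papain cluster at 0 UMIs drawn at 0.02. Of *Mgl2* UMIs, 96.8% lay in cluster 5, which stood above all other clusters at a median antibody value of 0.527.

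Within cluster 5, *Mgl2* mRNA followed the CD301b antibody. Its level was 54.3 CPM (45.7 to 64.2) in the 143 CD301b-low, 398 CPM (366 to 432) in the 64 CD301b-int and 703 CPM (650 to 760) in the 39 CD301b-high cells. The share of cells with a UMI went from 19.6% (13.4 to 27.0%) to 71.9% (59.2 to 82.4%) and 82.1% (66.5 to 92.5%), at median depths of 16295, 20988 and 21227 UMIs. Over these 246 cells, Spearman's correlation of *Mgl2* with the antibody value was 0.625, against 0.018 over the other 1778 naive cDC2s. Outside the cluster the 3 classes had 2, 36 and 6 *Mgl2* UMIs, or 0.299, 4.05 and 0.571 CPM. Most cells there were thus tied at 0 UMIs, which limits the correlation outside the cluster.

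Other members moved with the antibody inside cluster 5 to a lesser degree. The correlation was 0.379 for *Clec4a2*, 0.313 for *Cd209a*, 0.311 for *Clec7a*, 0.300 for *Mrc1*, 0.298 for *Clec12a*, 0.192 for *Clec4n* and 0.103 for *Clec10a*, and it was -0.190 for *Ly75*. It was 0.532 for *Lyz2* and 0.318 for the number of UMIs, so depth moved with the antibody too, and its part was not tested. *Clec7a* was at 560, 853 and 1037 CPM in the CD301b-low, -int and -high cells of the cluster, *Cd209a* at 173, 314 and 403 CPM, and *Mrc1* at 12.2, 31.8 and 76.4 CPM. *Ly75* took the opposite order, at 36.2, 22.2 and 7.75 CPM, and *Ccr7* did as well, at 1662, 1295 and 769 CPM.

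**Figure D4:**
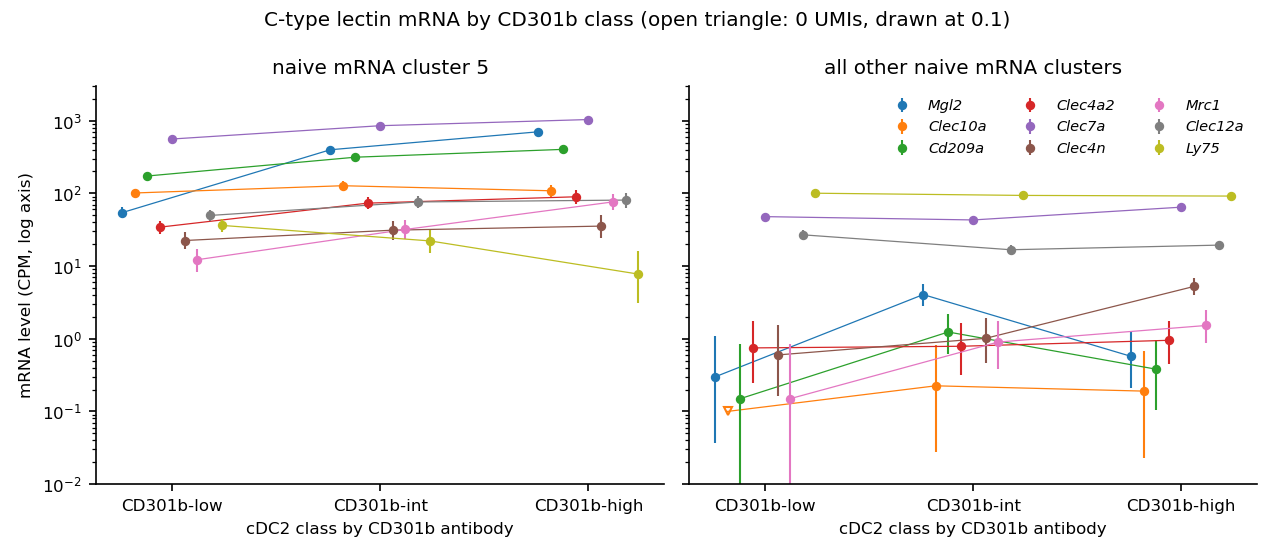
mRNA level in CPM (log axis) of the 9 genes in naive cDC2s by CD301b antibody class, in mRNA cluster 5 (left) and in all other naive clusters (right); points are summed CPM, bars 95% Poisson intervals, and open triangles 0 UMIs drawn at 0.1. In cluster 5 *Mgl2* went from 54.3 to 703 CPM across the classes, and outside it *Mgl2* stayed at or below 4.05 CPM.

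*Clec10a*, the neighbour and closest relative of *Mgl2*, had the opposite order over the naive classes. It was at 27.9 CPM (24.5 to 31.5) in CD301b-low, 18.0 CPM (15.5 to 20.8) in CD301b-int and 8.76 CPM (7.13 to 10.7) in CD301b-high cDC2s, with a log2 ratio of CD301b-high over CD301b-low of -1.67 (-2.02 to -1.33). It was the only member called lower there, where 3.56% of all genes were called. The 143 CD301b-low, 64 CD301b-int and 39 CD301b-high cells of cluster 5 had 101, 127 and 109 CPM, so the order over all cDC2s was not seen within the cluster. In the papain library its 3, 1 and 8 UMIs were near the limit of detection in every cDC2 class.

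*Cd209a* and *Clec4a2* were at 47.8, 45.0 and 32.2 CPM and at 9.97, 10.9 and 7.97 CPM in naive CD301b-low, -int and -high cDC2s. In papain cDC2s they were at 1.38, 0.068 and 0.336 CPM and at 1.38, 0.578 and 0.475 CPM. Papain LCs held 0 *Cd209a* UMIs, and at the limit of 3 UMIs their level was 34.5-fold lower than in naive LCs. The counting interval of that log2 ratio ended at -4.72, but 1 naive LC held 28 of the 30 UMIs behind it. The papain level of *Cd209a* rested on few cells, since 1 cell held 17 of its 25 UMIs in CD301b-low cDC2s and another 14 of its 17 UMIs in CD301b-high cDC2s.

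Naive cDC2s with *Mgl2* were also those with more of most other members. Cells with an *Mgl2* UMI had 359 CPM of *Cd209a*, 127 of *Clec10a*, 77.9 of *Clec4a2*, 44.6 of *Mrc1* and 743 of *Clec7a*, against 11.5, 7.30, 3.18, 1.87 and 106 CPM in those without one. *Clec7a* was nevertheless detected in 498 cells without *Mgl2* and 104 with it, and *Clec12a* in 302 and 68. *Ly75* had the reverse relation, at 20.4 against 89.9 CPM. The cells with *Mgl2* were deeper, with a median of 20404 against 13940 UMIs, and the part of depth was not tested. At least 4 of the 8 members other than *Ly75* were detected in 121 of 2024 naive cDC2s (5.98%) and in 8 of 6190 papain cDC2s (0.129%).

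*Clec7a*, encoding the glucan receptor Dectin-1, was one of 3 members, with *Clec12a* and *Ly75*, that stayed above 10 CPM in every papain cDC2 class. Its naive level was 189 CPM (180 to 198) in CD301b-low, 156 CPM (149 to 164) in CD301b-int and 141 CPM (135 to 148) in CD301b-high cDC2s, 34.8 CPM in cDC1s and 25.0 CPM in LCs. Papain cDC2s had 64.5 CPM (60.9 to 68.4), 21.6 CPM (19.9 to 23.3) and 24.0 CPM (22.6 to 25.4), cDC1s 22.8 CPM and LCs 32.8 CPM. CD301b-low cells were thus highest among the cDC2 classes in both libraries, and the papain CD301b-int and CD301b-high intervals overlapped.

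In papain cDC2s the log2 ratio of *Clec7a* in CD301b-high over CD301b-low cells was -1.43 (-1.55 to -1.31). It was the only member called lower in that comparison, where 1.41% of all genes were called. Shares of cells with a *Clec7a* UMI after thinning were 29.3%, 22.1% and 25.0% of the naive cDC2 classes and 19.8%, 9.69% and 10.6% of the papain ones. The thinned shares of cDC1s and LCs were 10.7% and 10.1% in the naive and 12.8% and 15.6% in the papain library, the latter above those of papain CD301b-int and -high cDC2s.

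*Clec4n* and *Mrc1*, for Dectin-2 and the mannose receptor, stayed under 10 CPM in every class of both libraries and could not be called. *Clec4n* was at 6.61, 5.22 and 7.62 CPM in the naive and 3.99, 2.14 and 1.78 CPM in the papain cDC2 classes. One naive cell held 49 of its 202 naive cDC2 UMIs and 1 papain cell 46 of 225. *Mrc1* was at 3.47, 5.22 and 7.44 CPM in naive and 0.499, 1.12 and 0.712 CPM in papain cDC2s, with a naive CD301b-high over CD301b-low log2 ratio of 1.10 (0.50 to 1.74). That ratio rested on few cells, since 1 cell held 18 of the 32 UMIs in CD301b-low and another 24 of the 85 in CD301b-high cDC2s. The *Mrc1* levels given within cluster 5 carry the same limit.

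*Ly75*, encoding DEC-205, was the member expressed most evenly. It was at 82.8, 83.7 and 85.1 CPM in the naive cDC2 classes, 119 CPM in cDC1s and 92.6 CPM in LCs, and at 101, 108, 96.7, 133 and 150 CPM in the papain classes in the same order. Its log2 ratios of papain over naive ran from 0.16 in cDC1s to 0.70 (0.56 to 0.84) in LCs, and none reached 2-fold. Cells with a *Ly75* UMI made up between 46.2% and 72.5% of a class in the naive library and between 57.4% and 80.0% in the papain library.

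*Clec12a*, encoding an inhibitory receptor for uric acid crystals, was called lower in papain CD301b-low cDC2s and higher in papain cDC1s. It was at 33.2, 25.1 and 24.3 CPM in naive and 14.6, 19.2 and 19.4 CPM in papain CD301b-low, -int and -high cDC2s. In cDC1s it was at 22.6 CPM (19.7 to 25.9) in the naive and 56.6 CPM (48.5 to 65.7) in the papain library, with log2 ratios of -1.18 (-1.42 to -0.94) in CD301b-low cDC2s and 1.32 (1.03 to 1.62) in cDC1s. The ratios were -0.38 in CD301b-int and -0.32 in CD301b-high cDC2s. Without the naive cells of cluster 5, an mRNA cluster described above, the ratios of the 3 cDC2 classes were -0.88 (-1.16 to -0.60), 0.20 (-0.07 to 0.47) and 0.00 (-0.22 to 0.23), none of them called. LCs had 4.14 and 9.37 CPM. The difference between the classes was not tested.

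Between the libraries, 3 to 5 of the 9 members were called lower in each papain cDC2 class by the 2-fold rule, which applies to genes that reached 10 CPM. In CD301b-low cDC2s, 5 of the 6 members that reached it were called lower (*Mgl2*, *Clec10a*, *Cd209a*, *Clec7a*, *Clec12a*), beside 6.46% of all genes tested. In CD301b-int cDC2s, 5 of 7 were (*Mgl2*, *Clec10a*, *Cd209a*, *Clec7a*, *Clec4a2*), beside 4.82%, and in CD301b-high cDC2s 3 of 5 (*Mgl2*, *Cd209a*, *Clec7a*), beside 3.78%. *Mgl2*, *Clec10a*, *Cd209a* and *Clec4a2* reached 10 CPM only through the naive cells, so where they passed the minimum they had to differ. Only 3 members reached 10 CPM in cDC1s (*Clec7a*, *Clec12a*, *Ly75*) and 2 in LCs (*Clec7a*, *Ly75*), so the rule could not call the others there. Of the 3 in cDC1s, 0 were called lower (5.48% of all genes tested) and *Clec12a* was called higher (2.56%), and of the 2 in LCs 0 were called lower (2.72%). Whether the classes differed in these changes was not tested. Genes tested had a median log2 ratio between 0.01 and 0.09 in these classes.

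The log2 ratio of papain over naive for *Mgl2* was -4.19 (-5.07 to -3.42) in CD301b-low, -6.96 (-7.84 to -6.20) in CD301b-int and -5.54 (-5.94 to -5.16) in CD301b-high cDC2s. In LCs it was -5.83 (-8.94 to -3.86) on 2 papain UMIs, with 23 of the 33 naive UMIs in 1 cell. Papain cDC1s held 0 *Mgl2* UMIs, and at the limit of 3 UMIs their level was 8.09-fold lower than in naive cDC1s. The counting interval of that log2 ratio ended at -2.68, and 1 naive cDC1 held 33 of the 75 UMIs. For *Clec7a* the ratios were -1.55 (-1.66 to -1.44), -2.86 (-2.99 to -2.72) and -2.56 (-2.67 to -2.45) in the 3 cDC2 classes, -0.61 in cDC1s and 0.39 in LCs. *Clec7a* was thus lower in papain cDC2s and slightly higher in papain LCs.

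These ratios rested in large part on cluster 5. When its cells were left out of the naive library, *Mgl2* had 0.299 CPM in naive and 0.831 CPM in papain CD301b-low cDC2s, a log2 ratio of 1.47 (-0.63 to 4.65), and 0.571 and 1.21 CPM in CD301b-high cDC2s, a ratio of 1.08 (-0.12 to 2.58). In CD301b-int cDC2s it remained lower, at 4.05 and 0.476 CPM, with a ratio of -3.09 (-4.09 to -2.16). The cluster was chosen here as the one with the most *Mgl2* and was removed from 1 library only, which lowers the naive level by construction. Of the members, only *Clec7a* in CD301b-high cDC2s was then called lower, at 64.6 and 24.0 CPM with a ratio of -1.43 (-1.57 to -1.29), and its ratios were 0.43 in CD301b-low and -0.998 (-1.18 to -0.81) in CD301b-int cells, just short of 2-fold. The share of all genes called without the cluster was not computed. *Ly75* had ratios of 0.01 to 0.20.

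A second cut did not use the members and was applied to both libraries. It kept cDC2s with at least 2000 CPM of the 5 migratory markers, 1849 naive and 6153 papain cells, and the 175 naive cells under it held 1174 (84.3%) of the naive *Mgl2* UMIs. In the cells kept, *Mgl2* was at 7.85 CPM in naive and 0.615 CPM in papain cDC2s, a log2 ratio of -3.67 (-4.11 to -3.25). The ratio was -7.42 for *Cd209a*, -5.56 for *Clec10a*, -1.55 (-1.63 to -1.47) for *Clec7a*, -0.27 for *Clec12a* and 0.12 for *Ly75*. *Mgl2*, *Cd209a* and *Clec10a*, all under 10 CPM in the naive cells kept, and *Clec7a* therefore stayed lower over all papain cDC2s, and *Ly75* stayed within 2-fold. The cut did not take out all of cluster 5. The naive cells kept held 218, 244 and 94 UMIs of *Mgl2*, *Cd209a* and *Clec10a*. All naive cDC2s outside the cluster held 44, 16 and 4, so most of the UMIs kept lay in the cluster. With the cluster left out instead, the ratios over all cDC2s were -0.88, -0.45 and -0.32, and -0.79 for *Clec7a*. By class, the members called lower past this cut were *Clec12a* alone in CD301b-low cDC2s, where *Clec7a* was no longer called, *Mgl2*, *Clec7a* and *Cd209a* in CD301b-int, and *Clec7a* and *Cd209a* in CD301b-high cDC2s. The share of all genes called past this cut was not computed, so these calls have no background beside them.

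**Figure D5:**
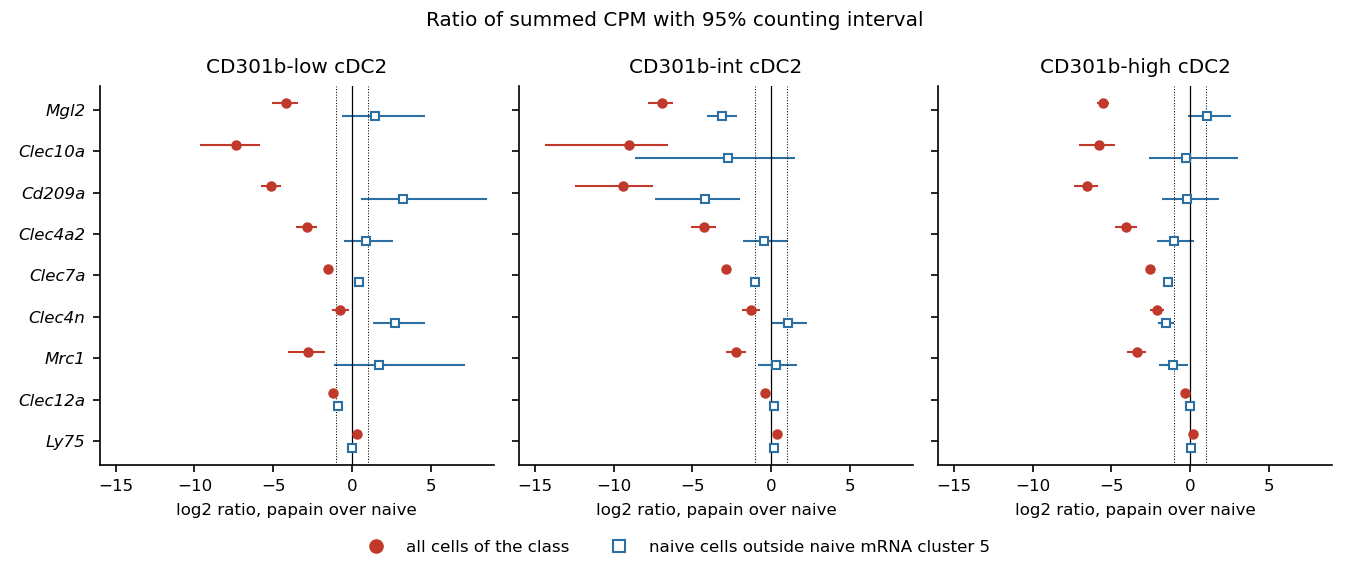
log2 ratio of papain over naive CPM of the 9 genes in each cDC2 class, from all cells (red circles) and with the naive cells of mRNA cluster 5 left out (open blue squares), with 95% counting intervals; dotted lines mark 2-fold and ratios with 0 UMIs in a library are not drawn. *Mgl2* in CD301b-low cDC2s went from -4.19 to 1.47 when the cluster was left out, and *Ly75* lay between 0.01 and 0.36 either way.

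Among 23 other listed lectin genes (of 30 on the list), 4 of the 9 that reached 10 CPM were called lower in papain CD301b-low cDC2s (6.46% of all genes tested), 2 of 7 in CD301b-int (4.82%) and 3 of 7 in CD301b-high cDC2s (3.78%), and none was called higher. *Cd209d*, another relative of DC-SIGN, was at 64.3, 26.0 and 19.4 CPM in naive and 1.72, 0.442 and 1.03 CPM in papain CD301b-low, -int and -high cDC2s. Naive cDC2s with an *Mgl2* UMI had 263 CPM of *Cd209d*, against 13.7 CPM in those without one. How far the ratios of these other lectins rested on cluster 5 was not tested. *Clec4b1* (DCAR), a gene of the *Clec4a* neighbourhood, was at 14.2, 13.2 and 11.7 CPM in naive and 1.38, 0.442 and 0.573 CPM in papain cDC2s. *Cd209d* and *Clec4b1* reached 10 CPM only through the naive cells, so where they passed the minimum they had to differ. The counts above include both genes in every cDC2 class and were partly set by that minimum. *Clec4a1* and *Klrb1b* were called lower only in CD301b-low cDC2s, and *Clec2i* only in CD301b-high cDC2s, at 34.4 and 16.2 CPM; the differences between classes were not tested. The medians over the listed lectins past 10 CPM were -0.36, -0.62 and -0.69. *Clec2d*, at 552 to 694 CPM in naive and 525 to 613 CPM in papain cDC2s, and *Cd302*, at 19.8 to 28.1 and 34.7 to 41.6 CPM, were among those within 2-fold. In LCs *Klrd1* (CD94) was called higher, at 8.47 and 18.5 CPM (4.35% of all genes tested), and *Cd69*, an early activation antigen, lower, at 28.6 and 13.7 CPM (2.72%), out of 5 that reached 10 CPM.

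Of 32 listed genes for the signalling of these receptors, 7 of the 27 that reached 10 CPM were called lower in papain CD301b-low cDC2s (6.46% of all genes tested), 3 of 29 in CD301b-int (4.82%) and 5 of 28 in CD301b-high cDC2s (3.78%), and none higher. *Egr2* and *Egr3*, transcription factors induced by Syk and NFAT signalling, were lower in all 3, *Egr3* from 54.2, 37.6 and 30.9 to 2.44, 3.88 and 5.44 CPM and *Egr2* from 37.3, 30.2 and 21.5 to 2.88, 2.99 and 3.56 CPM. Both genes reached 10 CPM only through the naive cells, so where they passed the minimum they had to differ. The cDC2 counts above include both and were partly set by that minimum. *Tnf* was lower in all 3 cDC2 classes as well, at 40.3, 64.7 and 87.6 CPM in naive and 19.7, 30.4 and 39.3 CPM in papain cDC2s. Over all cDC2s together *Tnf* was not called. *Il6* and *Vav3* were called lower in CD301b-low and -high cDC2s, and *Inpp5d* (SHIP-1) and *Nfatc1* in CD301b-low ones. In cDC1s *Egr3* and *Nfatc1*, 2 of 24, were called lower (5.48% of all genes tested), and in LCs 0 of 24 were (2.72%). The adaptor and kinase genes were within 2-fold, with *Syk* at 70.2 to 91.9 CPM in naive and 59.3 to 71.2 CPM in papain cDC2s and *Fcer1g*, the Fc receptor gamma chain, at 463 to 578 and 432 to 484 CPM. *Card9* stayed between 6.50 and 7.71 CPM in cDC2s of both libraries and did not reach the minimum.

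The genes whose level was most like that of *Mgl2* over the 10 class and library groups were *Rps28*, *Gm7867*, *Rpl19-ps6*, *Gm48909* and *Gm8623*, with Pearson's correlation of log2(CPM + 1) from 0.964 to 0.977 out of 3287 genes whose highest group reached 50 CPM. The groups share 2 libraries, and *Rps28*, a ribosomal protein gene, was at 149 to 281 CPM in all 5 naive and 86.2 to 108 CPM in all 5 papain classes, a split by library. Among the members the correlation with *Mgl2* was 0.957 for *Cd209a*, 0.936 for *Clec4a2*, 0.909 for *Clec10a*, 0.795 for *Clec7a*, 0.103 for *Clec12a* and -0.756 for *Ly75*. By the antibody instead of the mRNA, the genes most like CD301b over cDC2s in both libraries were *Apol7c* (0.396 naive, 0.424 papain), *Basp1* (0.363 and 0.350), *Pvr* (0.336 and 0.367), *Pfkfb3* (0.349 and 0.333) and *Marcksl1* (0.380 and 0.323), among 2256 genes. *Mgl2* itself, at 0.023 and 0.019, was below the 50 CPM set for this ranking, at 44.9 CPM in naive and 0.918 CPM in papain cDC2s.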

How the data were processed

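Cells were sorted, stained with 12 barcoded antibodies and sequenced by the authors (10x 3′ v3), 1 library per condition. Per the submitters' processing notes, reads were processed with Cell Ranger 3.0.1 and Partek on mm10. The expression values deposited by the authors are log2(CPM + 1) per cell. They were turned back into UMI counts, and 100% of values up to 50 UMIs were whole within 0.02. The authors' antibody values are on a natural log scale, ln(1 + (count + 1) / geometric mean over 12 antibodies). The deposited totals of antibody counts per cell had medians of 7586 and 3852. The authors' class labels and mRNA clusters were used. Expression was deposited for 3471 naive and 7596 papain cells, with 3637 to 57378 and 2682 to 57150 UMIs, and 3042 and 7306 of them had an antibody class. The other 429 and 290 entered no comparison. No cell was filtered and no doublet caller was run; cells with a *Cd3e* or *Trac* UMI were removed only as an alternative.

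UMIs were summed per class and library, and ratios of CPM were computed in python 3.11.15 with numpy 2.4.6, pandas 2.3.3 and scipy 1.17.1, and drawn with matplotlib 3.10.9. Confidence levels were 95%, and the floor for 0 counts was 3 UMIs. Read intervals and floors cover counting error only. Simulated counts with 200 changed genes were recovered past 2-fold in 100% of changed and 0% of unchanged genes, for CD301b-low (7276 genes) and CD301b-high cDC2s (6864 genes). These were Poisson counts of genes at 10 CPM or more, with log2 changes of 1.5 or 3 in either direction. They hold no variation between cells or libraries, so they check the arithmetic and give no rate of false calls for these data.

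The members, the gene lists and the markers were chosen with earlier results of these data known. The text names all 9 members, the genes of the wider lists past the 2-fold rule with at most 4 others by level, the 5 genes most like *Mgl2* and the 5 most like the CD301b antibody. The alternatives changed the pseudocount, scaling, cell filter, class borders, antibody scale, thinning, minimum CPM and fold threshold. Leaving out the mRNA cluster with the most *Mgl2*, the cut at 2000 CPM of migratory markers and leaving out the cell with the most *Mgl2* UMIs were added after seeing the data.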

Additional observations from a re-analysis of the deposited data

Results flagged for a closer look

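Cells outside the comparisons also held members. The 429 naive cells with expression but no antibody values had *Mgl2* at 21.2 CPM (18.0 to 24.8), *Clec10a* at 4.52, *Clec7a* at 105, *Clec4a2* at 5.07, *Clec4n* at 5.61, *Cd209a* at 14.7, *Clec12a* at 17.4, *Ly75* at 88.0 and *Mrc1* at 4.11 CPM. Of them, 237 held a T cell transcript, as did 241 of the 290 papain cells of this kind. The papain cells had 0 *Mgl2* UMIs, which allows up to 1.11 CPM, *Clec7a* at 29.0, *Clec4a2* at 3.34, *Clec4n* at 11.9, *Cd209a* at 2.60, *Clec12a* at 7.80 and *Ly75* at 64.2 CPM. Their median depths were 9593 UMIs in the naive and 6966 UMIs in the papain library. *Clec10a* and *Mrc1* had 3 and 2 UMIs in them, at or below the limit that 0 UMIs allow. Apart from these and papain *Mgl2*, the levels given were above that limit, and these cells were given no class.

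*Clec12a* had a log2 ratio of papain over naive of -1.18 in CD301b-low cDC2s and 1.32 in cDC1s, each from 1 library per condition, and the difference was not tested.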

How the results depend on the processing

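No paired analysis was possible because each condition had 1 library and the labels give no replicate numbers that pair samples. With 1 library per condition, leaving out a replicate was also not possible. Of the results on *Mgl2* and on counts of called members, 64 values under an alternative moved by less than the counting error or stayed within 1.5 times. Another 22 moved further, and 2 whose main ratio was past 2-fold changed sign. The 22 include a change of sign from a smaller ratio. For *Mgl2* in papain CD301b-high over CD301b-low cDC2s, the log2 ratio went from 0.54 to -0.46 with migratory markers. The alternatives with all naive cDC2s outside mRNA cluster 5 and with migratory markers change which cells enter.

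For papain over naive, the log2 ratio of *Mgl2* in CD301b-low, -int and -high cDC2s was -3.14, -5.35 and -4.69 with 1 CPM added to both levels, which shrinks ratios of low levels. It was 1.47, -3.09 and 1.08 with naive cells of cluster 5 left out, with the sign changed in CD301b-low and -high cells, and -1.71, -4.85 and -3.34 with at least 2000 CPM of migratory markers. It was -5.98 in CD301b-high cells without the cell with the most *Mgl2* UMIs. For CD301b-high over CD301b-low naive cDC2s it was 1.17 with migratory markers, 1.21 with tertiles cut over both libraries, 0.93 outside cluster 5 and 3.69 within it, and for papain cDC2s -0.46 with migratory markers. The correlation of *Mgl2* with CD301b in naive cDC2s was 0.0968 with the share of antibody counts and 0.625 in cluster 5. Members called lower in papain CD301b-low, -int and -high cDC2s numbered 0, 0 and 1 outside cluster 5. They numbered 1 and 3 in the first 2 classes with migratory markers, and 7 in CD301b-high cells with no minimum CPM. The share of all genes called was not computed under these settings. No minimum CPM also counted 2 members as higher in cDC1s, *Clec12a* and *Clec4n*. *Clec4n* had 3 UMIs in naive and 0 in papain cDC1s, and was counted only because the floor of 3 UMIs replaced the 0. Beyond the changes of cells and this floor, the cause of the moves was not tested. Shares of cells with a UMI moved past their interval in 31 values and stayed within it in 5 after thinning or at 2 UMIs. The 5 genes most like *Mgl2* also depended on the minimum level, since only 2 of them were kept at 10 CPM in place of 50 CPM.

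Low counts limit what can be said of papain cells: *Mgl2* UMIs numbered 15, 14 and 61 in their cDC2 classes. The shares of cells behind them overlapped that of papain LCs within counting error. Over all cDC2s, median depth was 14783.5 UMIs after papain and 14196 UMIs in naive cells, but the classes differed. CD301b-low cDC2s were less deep after papain, at 11351 against 12751 UMIs in naive cells. CD301b-int cDC2s (15083 against 14316 UMIs) and CD301b-high cDC2s (16181 against 15167 UMIs) were deeper. By CPM, the papain LC interval (0.013 to 0.394) overlapped that of CD301b-int and lay below those of CD301b-low and CD301b-high cDC2s. However, 1 cell held 7 of the 15 UMIs and another 20 of the 61.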
